A study of Mus musculus with 8 samples.

Results

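Cyclic AMP and cyclic GMP are second messengers made by adenylyl and guanylyl cyclases and broken down by cyclic nucleotide phosphodiesterases. In hippocampal neurons they carry signals from neurotransmitter receptors and calcium to protein kinases and to transcription in the nucleus, and the phosphodiesterase families differ in which messenger they cleave and in what switches them on. The genes described here were 9 phosphodiesterase genes with known expression in neurons, Pde1a, Pde1b, Pde1c, Pde2a, Pde4a, Pde4b, Pde4d, Pde7b and Pde10a, chosen by name from the 40659 genes of the count table. All 9 had enough reads to be tested, among 17252 tested genes. Pde1a was the gene around which the set was built, and it belongs to a list that the study drew up from these same libraries of genes lower after miR-708-5p overexpression with a predicted binding site. Its difference between the groups is therefore given as a description and supports nothing.

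The mice were male C57BL/6JRj animals. They received a recombinant adeno-associated virus (rAAV) in the dorsal and ventral hippocampus of both hemispheres at postnatal week 7 or 8, and whole hippocampi were taken 4 weeks later by the study's methods. The labels give the age at collection as postnatal week 12 or 13, and these ages and the interval do not match exactly. The hp708 virus expressed a hairpin that gives rise to miR-708-5p, placed in the 3′UTR of EGFP and driven by the human synapsin promoter, which is active in neurons, and the hpCTL virus was the control. There were 4 animals in each group, 1 polyA-RNA sequencing library each. The hairpin was meant to act in transduced neurons, while the libraries hold the RNA of every cell of the hippocampus. In such bulk samples fewer cells of a type and less RNA per cell cannot be told apart.

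The libraries held 22606824 to 28462428 counts each. No library had a count for the gene Mir708, so the level of the microRNA is not known from these data. The animal behind the library labelled hp708 replicate 1 is placed in the control group in the source data of the study's qPCR. Fold changes of the 9 genes whose sign or size depended on this library are given with and without it. Those of the other cyclic nucleotide genes listed later are given from all 8 libraries only. Neuronal markers were abundant in all libraries (5 genes, 4453 to 5308 CPM summed, that is counts scaled to a common library size by the trimmed mean of M-values), CA1 pyramidal markers summed to 604 to 727 CPM and markers of the neighbouring striatum to 22.9 to 29.5. Choroid plexus markers ranged from 51.9 CPM in hpCTL replicate 1 to 4391 in hp708 replicate 2.

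The microRNA and its possible sites in these transcripts are shown first. MicroRNAs bind mRNAs mainly through their seed, bases 2 to 8. In the mature sequence of mouse miR-708-5p (23 bases, RefSeq) the seed is in capitals, and the mouse miRNA table lists miR-28a-5p with the same seed.
miR-708-5p: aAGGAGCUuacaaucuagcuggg

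The longest annotated 3′UTR of each gene was searched, on the mRNA strand, for AGCTCCT followed by an A (8mer), AGCTCCT alone (7mer-m8) and GCTCCTA (7mer-A1). 4 of the 9 genes held such a site, and 3927 of the 14808 tested genes with a 3′UTR did (26.5%). An 8mer was present in 2 of the 9, Pde1a and Pde7b, and in 516 of the 14808 (3.48%). A predicted site was part of how Pde1a was chosen, and the longest 3′UTR was longer than the median of the tested genes, 1865 bases, in 8 of the 9. These shares are therefore not like for like, and nothing is read from them. The sites are shown 5′ to 3′ on the mRNA strand, each within a stretch of 26 bases, with the bases that match the seed, and the A of an 8mer, in capitals.
Pde1a: ctctctccacaggacAGCTCCTActg
Pde7b: acgctgactggcagtAGCTCCTAagt
Pde4b: agcagattattcacccAGCTCCTcag
Pde2a: atttggacggcaccagAGCTCCTgtc

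On GRCm39 the Pde1a stretch lies at chr2:79665099-79665124 on the minus strand, and its 8mer starts at base 1875 of a 3′UTR of 2620 bases. This 3′UTR segment is part of 7 of the 15 annotated coding transcripts of Pde1a. The Pde7b stretch lies at chr10:20275848-20275873 on the minus strand, in 1 of 4 coding transcripts. The Pde4b stretch lies at chr4:102464976-102465001 on the plus strand, in 6 of 9 coding transcripts, and the Pde2a stretch at chr7:101160818-101160843 on the plus strand, in 1 of 13. The 2 genes with an 8mer thus differed in how many of their transcripts carry it. Counts per gene do not tell these transcripts apart. Pde1b, Pde1c, Pde4a, Pde4d and Pde10a held in their longest 3′UTR only the 6-base match GCTCCT, which all 9 genes held and 47.8% of the tested genes with a 3′UTR held as well. These letters are matches and not shown binding sites.

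PDE1 enzymes are activated by calcium and calmodulin, and so couple calcium entry to the breakdown of cyclic nucleotides. Pde1a (chromosome 2, 79664364 to 79959802, minus strand) encodes the isoform that prefers cGMP. In the 4 hpCTL libraries it was at 211, 209.9, 212 and 217 CPM, and in hp708 replicates 1 to 4 at 226, 148, 195 and 172. The control values lay close together, whereas the library labelled hp708 replicate 1 was the highest of all 8 and the other 3 hp708 libraries lay below every control. The means were 212 ± 2.95 in hpCTL and 185 ± 33.4 CPM in hp708 (SD, n = 4 each), and the groups overlapped through that 1 library.

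The spread of Pde1a was itself unequal between the groups. Its coefficient of variation was 1.39% in hpCTL and 18.0% in hp708, and 13.9% in hp708 without the library labelled hp708 replicate 1. The gene was chosen on these libraries, so its spread, too, is a description only. The median over all tested genes was 12.0% in hpCTL and 12.6% in hp708.

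In the quasi-likelihood fit across all genes with 3 surrogate variables (factors estimated from the table to absorb variation unrelated to group), the log2 fold change of Pde1a, hp708 minus hpCTL, was -0.13 (SE 0.04, unadjusted p = 0.0258, FDR = 0.594). Without surrogate variables it was -0.20 (SE 0.12, unadjusted p = 0.120, FDR = 0.999). Without the library labelled hp708 replicate 1 it was -0.34 (SE 0.07), with an FDR of 0.0906. Pde1a thus had a lower fitted value in hp708 under every setting tried, and no setting brought its FDR below 0.05.

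Pde1b (chromosome 15, 103411286 to 103439706, plus strand) encodes a second calmodulin-dependent enzyme, best known from the striatum. It was at 103, 103, 116 and 107 CPM in hpCTL and at 106, 95.8, 117 and 96.4 in hp708. The highest value was in hp708 replicate 3 and the lowest in hp708 replicate 2, so that the groups overlapped fully. The log2 fold change was -0.03 (SE 0.07, FDR = 0.948), and -0.10 without the library labelled hp708 replicate 1. Of the exonic bases of Pde1b 35.4% also belong to exons of Ppp1r1a on the opposite strand, a gene at 53.9 to 100.3 CPM here. Whether reads were counted by strand is not given in the sources used here, and reads of the shared bases may be from either gene.

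Pde1c (chromosome 6, 56046784 to 56629472, minus strand), whose product cleaves cAMP and cGMP alike, was the least abundant of the 3 PDE1 genes. It was at 4.68, 7.52, 6.19 and 7.06 CPM in hpCTL and at 7.58, 6.13, 5.50 and 5.08 in hp708. These values rest on 123 to 209 reads per library, and the lowest was a control. The log2 fold change was -0.06 (SE 0.13, FDR = 0.942). Without the library labelled hp708 replicate 1 it was -0.31, and without hpCTL replicate 2 it was 0.06.

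**Figure D1:**
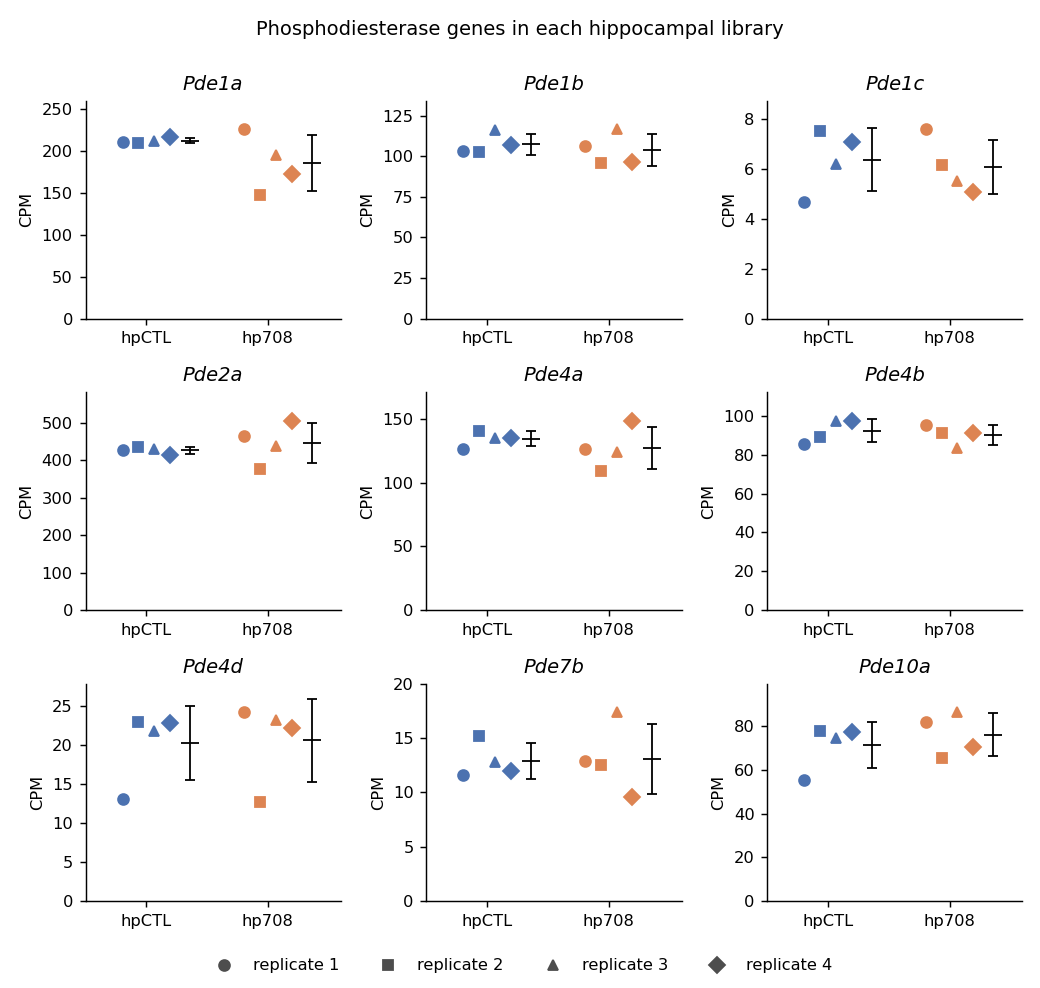
CPM of the 9 phosphodiesterase genes in each library, 1 panel per gene with its own axis from 0; blue symbols are the 4 hpCTL and orange symbols the 4 hp708 libraries, the symbol shape gives the replicate number, and black bars are the mean ± SD. In the Pde1a panel the 4 control values sit between 209.9 and 217 and the hp708 values between 148 and 226; in no panel are the groups separated.

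PDE2A cleaves both messengers and is stimulated by cGMP, so that a rise of cGMP lowers cAMP in the same cell. Pde2a (chromosome 7, 101070825 to 101162038, plus strand) was the most abundant of the 9 genes. It was at 428, 433, 429 and 413 CPM in hpCTL and at 463, 377, 436 and 505 in hp708. As with Pde1a, the controls were close together and the hp708 libraries lay on both sides of them. The coefficient of variation was 2.03% in hpCTL and 12.0% in hp708, and the log2 fold change was 0.08 (SE 0.07, FDR = 0.830), or 0.04 without hp708 replicate 4 and 0.15 without hp708 replicate 2 or 3. A second annotated gene on the same strand, Gm45837, has 95.6% of its exonic bases inside exons of Pde2a. Its counts were 0.996 to 1.00 times those of Pde2a in each library, so the 2 genes cannot be separated in this table and the level of Pde2a may include reads of both.

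PDE4 enzymes are specific for cAMP and are the targets of the inhibitor rolipram. Pde4a (chromosome 9, 21073005 to 21124544, plus strand) was at 126, 141, 136 and 135 CPM in hpCTL and at 126, 109, 124 and 149 in hp708. Both the highest and the lowest library were hp708, and the log2 fold change was -0.09 (SE 0.07, FDR = 0.802), or -0.15 without hp708 replicate 4 and -0.02 without hp708 replicate 2. Pde4b (chromosome 4, 101944740 to 102465716, plus strand) was at 85.7, 89.1, 97.7 and 97.4 CPM in hpCTL and at 95.5, 91.3, 83.4 and 91.1 in hp708. It was the steadiest of the 9 genes over all 8 libraries, with the highest value 1.17 times the lowest, and its log2 fold change was -0.05 (SE 0.06, FDR = 0.889), with a range of -0.06 to -0.0016 when 1 library was left out.

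Pde4d (chromosome 13, 108586482 to 110092497, plus strand), the third PDE4 gene of the set, was at 13.2, 23.0, 21.9 and 22.9 CPM in hpCTL and at 24.3, 12.7, 23.3 and 22.3 in hp708. One library of each group, hpCTL replicate 1 and hp708 replicate 2, was low and the other 6 lay between 21.9 and 24.3. It varied most of the 9 genes, with the highest value 1.91 times the lowest. The log2 fold change was 0.06 (SE 0.07, FDR = 0.889), and its sign depended on the libraries included: without the library labelled hp708 replicate 1 it was -0.25, and without hpCTL replicate 1 it was -0.05.

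PDE7B and PDE10A are best known from the medium spiny neurons of the striatum, where PDE10A cleaves both messengers and PDE7B cleaves cAMP and is not inhibited by rolipram. Pde7b (chromosome 10, 20273567 to 20600886, minus strand) was at 11.6, 15.2, 12.8 and 12.0 CPM in hpCTL and at 12.9, 12.5, 17.4 and 9.54 in hp708. The hp708 libraries again held both ends of the range, and the log2 fold change was 0.05 (SE 0.20, FDR = 0.964), the widest error of the set. Its sign changed in 10 of the other fits, with -0.18 without the library labelled hp708 replicate 1 and -0.19 without hpCTL replicate 1. Pde10a (chromosome 17, 8744204 to 9205482, plus strand) was at 55.4, 77.5, 74.4 and 76.9 CPM in hpCTL and at 81.7, 65.5, 86.3 and 70.3 in hp708. Its lowest library was hpCTL replicate 1, and its log2 fold change was 0.12 (SE 0.08, FDR = 0.769), the highest of the 9. Without hpCTL replicate 1 the log2 fold change of Pde10a was -0.0037 and without the library labelled hp708 replicate 1 it was -0.07.

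Over the whole set, none of the 9 genes passed an FDR of 0.05 in edgeR's quasi-likelihood test, and 1 of all 17252 tested genes did (0.0058%). Without the library labelled hp708 replicate 1 there were again none of the 9, beside 56 of 17425 tested genes (0.321%). At an unadjusted p below 0.05 there was 1 of 9, Pde1a, which was lower in hp708, beside 7.7% of all tested genes in either direction and 4.87% in the lower direction. This depended on the libraries. It was 0 of 9 without hpCTL replicate 2, 3 or 4, beside 1231 of 17479, 520 of 17452 and 1061 of 17429 tested genes. Without hp708 replicate 4 it was 2 of 9, Pde4a (lower, unadjusted p = 0.0135) and Pde10a (higher, unadjusted p = 0.0262), beside 1477 of 17467 tested genes. Without hp708 replicate 2 or 3 it was 1 of 9, Pde2a (higher) in place of Pde1a, beside 2097 of 17463 and 1402 of 17488 tested genes. In 5 of 9 the fitted value was lower in hp708, beside 53.2% of all tested genes. In 0 of 9 did the CPM of the groups not overlap, beside 1.51% of all tested genes. The median log2 fold change of the set was -0.03 and that over all tested genes -0.01. Because the set was built around Pde1a with this contrast in view, nothing is read from its place in it. With 3 surrogate variables the likelihood ratio test and DESeq2 also called none of the 9 at an FDR below 0.05, beside 0.736% and 0.556% of all tested genes. In 6 of the 9 genes the coefficient of variation was higher in hp708 than in hpCTL, which was so for 56.4% of all tested genes.

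The 4 genes with an 8mer or 7mer site in the longest 3′UTR, Pde1a, Pde7b, Pde4b and Pde2a, had log2 fold changes of -0.13, 0.05, -0.05 and 0.08. They lay on both sides of 0. The sign of Pde7b was not stable, so no statement on the pair with an 8mer can rest on it. Over all annotated 3′UTRs Pde1c also had a 7mer-m8 site, in 1 of 17 coding transcripts, and then 5 of 9 genes held a site, beside 30.8% of the tested genes with a 3′UTR.

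**Figure D2:**
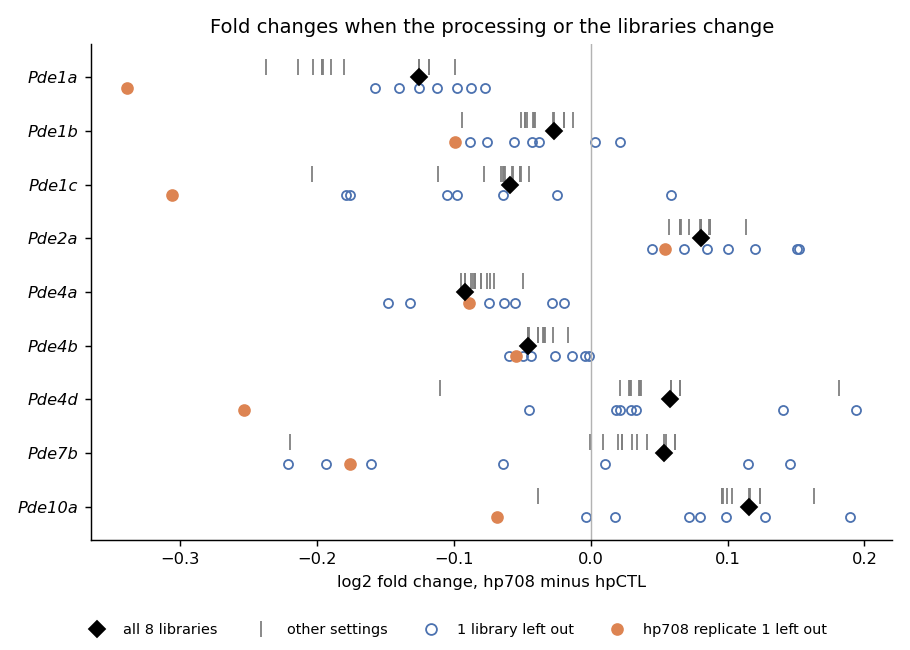
Log2 fold change (hp708 minus hpCTL) of each of the 9 genes; black diamonds are the fit on all 8 libraries, grey ticks the 13 other settings, open circles the fits that leave out 1 library, and filled orange circles the fit without the library labelled hp708 replicate 1. Pde1a is below 0 throughout, from -0.34 to -0.08, whereas Pde1b, Pde1c, Pde4d, Pde7b and Pde10a have values on both sides of 0.

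Levels of different genes were compared per kilobase of annotated exon. The order, from the median of the 8 libraries, was Pde2a at 57.4 CPM per kilobase, Pde1a at 28.0, Pde4a at 15.3, Pde1b at 15.1, Pde4b at 7.72, Pde10a at 5.78, Pde4d at 1.56, Pde7b at 0.996 and Pde1c at 0.292. Pde2a and Pde1a, the cGMP-stimulated and the calmodulin-stimulated enzyme, made up 44.2% and 20.2% of the summed level per length of the 9 genes. Each gene was compared within libraries with the next in this order by an exact permutation test of the sign of the log2 difference (two-sided, 8 libraries, 8 pairs). Of the pairs 7 differed, 6 of them in 8 of 8 libraries (adjusted p = 0.0104, exact permutation test, the smallest that 8 libraries give here). Pde2a was 2.20-fold above Pde1a, and Pde1a 1.72-fold above Pde4a. The sizes depended on the definition of length. The log2 difference of Pde2a to Pde1a was 1.14, but 1.26 with the longest coding transcript and 0.72 with the mean length of the coding transcripts. That of Pde1a to Pde4a was 0.78, 0.63 and 1.13 in the same order, and that of Pde1b to Pde4b 0.98, 0.55 and 0.17.

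Pde4a and Pde1b were not separated in this order, with a mean log2 difference of 0.01 ± 0.17 (SD) and Pde4a higher in 3 of 8 libraries (adjusted p = 0.922, exact permutation test). Under other definitions of length Pde4a was higher, by 0.23 on the log2 scale with the longest coding transcript (adjusted p = 0.00893) and by 0.17 with the mean length of the coding transcripts (adjusted p = 0.0179, both by the exact permutation test). Pde4d lay 0.44 ± 0.41 (SD) above Pde7b on the log2 scale, in 6 of 8 libraries (adjusted p = 0.0357, exact permutation test). Without any 1 of hpCTL replicates 2, 3 and 4 or hp708 replicates 1, 3 and 4 the difference was 0.36 to 0.47 with an adjusted p of 0.0714 (exact permutation test). With those 2 lengths the mean difference was -0.05 and -0.02 (adjusted p = 0.734 and 0.898, exact permutation test), although the median of Pde4d stayed above that of Pde7b. Part of the reads assigned to Pde2a and Pde1b may belong to the genes that share their exons.

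**Figure D3:**
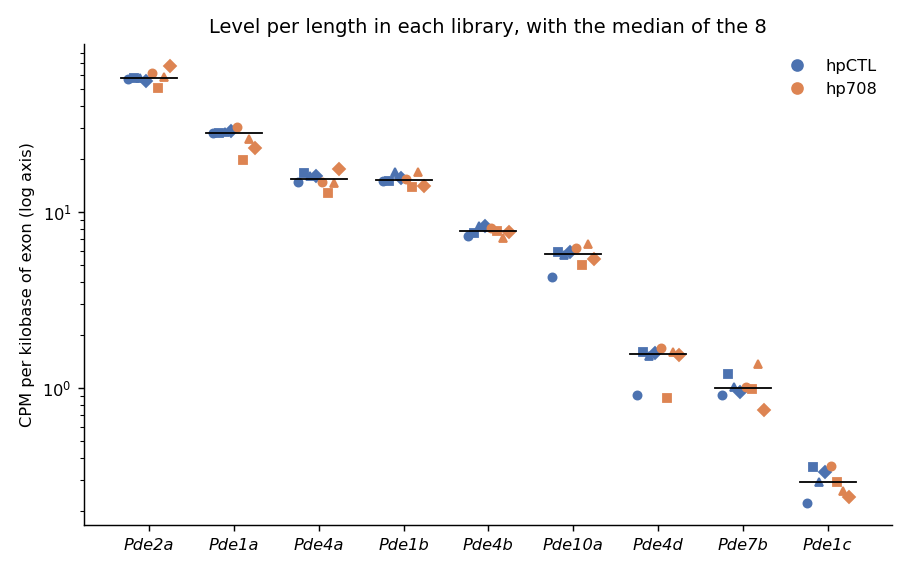
Level per length (CPM per kilobase of exon, log axis) of the 9 genes in each library, in the order of their medians; blue symbols are hpCTL, orange symbols hp708, and black lines the median of the 8 libraries. Pde2a (median 57.4) and Pde1a (28.0) are on top, Pde4a (15.3) and Pde1b (15.1) lie level, and Pde1c (0.292) is lowest.

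The members were next compared with each other across animals. By Pearson's r over the 8 libraries log2 CPM of Pde1a was related most closely to Pde1b (r = 0.61, exact permutation p = 0.0971, adjusted p = 0.388 over 8 relations; Spearman's rho = 0.55, p = 0.171, adjusted p = 0.535). The next was Pde4d (r = 0.53, exact permutation p = 0.0891, adjusted p = 0.388; rho = 0.45, p = 0.267, adjusted p = 0.535). The other 6 genes had r between 0.22 and 0.40, with adjusted p = 0.627 by exact permutation for each, and rho between 0.05 and 0.57, the highest being that of Pde1c. None of the 8 relations passed the threshold. The libraries farthest from the median of Pde1a were hp708 replicates 2 and 4, and without them r was -0.50 for Pde1b and 0.08 for Pde4d, so that neither relation held without them. Single libraries also moved the others. For Pde2a r was 0.85 without hp708 replicate 4 and -0.68 without hp708 replicate 2, for Pde4a 0.82 and -0.57, and for Pde10a 0.76 without hpCTL replicate 1, none of which passed after adjustment. With each value taken as its deviation from its group mean, r was 0.58 for Pde1b and 0.66 for Pde4d.

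Because whole hippocampi were dissected, Pde1a was also set beside 15 lists of markers of regions, cell types and the interferon response. With log2 CPM averaged over a list, the largest correlations were with the oligodendrocyte list (r = -0.81, exact permutation p = 0.0208, adjusted p = 0.178; rho = -0.43, p = 0.299, adjusted p = 0.613) and the CA3 list (r = -0.75, exact permutation p = 0.0237, adjusted p = 0.178; rho = -0.69, p = 0.0694, adjusted p = 0.345). Next were the interneuron list (r = 0.70, exact permutation p = 0.0552, adjusted p = 0.276; rho = 0.64, p = 0.0962, adjusted p = 0.345) and the subiculum list (r = 0.64, exact permutation p = 0.0745, adjusted p = 0.279; rho = 0.74, p = 0.0458, adjusted p = 0.345). No list passed the threshold after adjustment over the 15. Without hpCTL replicate 1 the interneuron list did (r = 0.89, adjusted p = 0.0298, exact permutation test). Without hp708 replicates 2 and 4 r was 0.23 for oligodendrocytes, -0.24 for CA3, 0.35 for interneurons and 0.80 for the subiculum. Other lists then had the largest values, the striatum at 0.91, the dentate gyrus at -0.91 and vascular smooth muscle and pericytes at 0.90, against 0.30, -0.44 and 0.18 with all 8 libraries. With values taken as deviations from the group means r was largest for the thalamus and habenula, at -0.84.

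The levels of these lists are given beside those of Pde1a. The summed oligodendrocyte markers were highest, at 7847 CPM, in hp708 replicate 2, where Pde1a was lowest, against 4148 to 5629 in the other 7 libraries. The CA3 markers summed to 116 to 184 CPM in hpCTL and to 143 to 216 in hp708, and 5 of 5 had a higher fitted value in hp708, 4 of them at an unadjusted p below 0.05. The subiculum markers summed to 166 to 249.8 CPM in hpCTL and to 157 to 220.3 in hp708, and 4 of 4 tested had a lower fitted value in hp708, 2 of them at an unadjusted p below 0.05. Interneuron markers summed to 679 to 806 in hpCTL and 679 to 739 in hp708. The interferon response list had a lower fitted value in hp708 in 6 of 6 genes, all 6 at an unadjusted p below 0.05, and the microglia list in 6 of 6, 4 of them at an unadjusted p below 0.05. The sums of both lists overlapped between the groups, from 79.2 to 200.4 CPM in hpCTL and 72.5 to 183 in hp708 for interferon response and from 628 to 841 and 523 to 871 for microglia. Their mean log2 CPM differed by -0.29 (exact permutation p = 0.600) and -0.11 (exact permutation p = 0.571). All 5 oligodendrocyte and all 6 choroid plexus markers had a higher fitted value in hp708, none at an unadjusted p below 0.05 (mean log2 CPM differences 0.15 and 0.65, exact permutation p = 0.571 and 0.543). Of all tested genes 7.7% had such a p. None of these markers was at 0 in all libraries and none passed an FDR of 0.05. Between the groups, the difference in mean log2 CPM, hp708 minus hpCTL, was -0.59 for the subiculum (exact permutation p = 0.0571), -0.15 for interneurons (exact permutation p = 0.0857) and 0.31 for CA3 (exact permutation p = 0.114), these 3 each with an adjusted p of 0.571 over the 15 lists. Their part in the values of Pde1a was not tested.

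**Figure D4:**
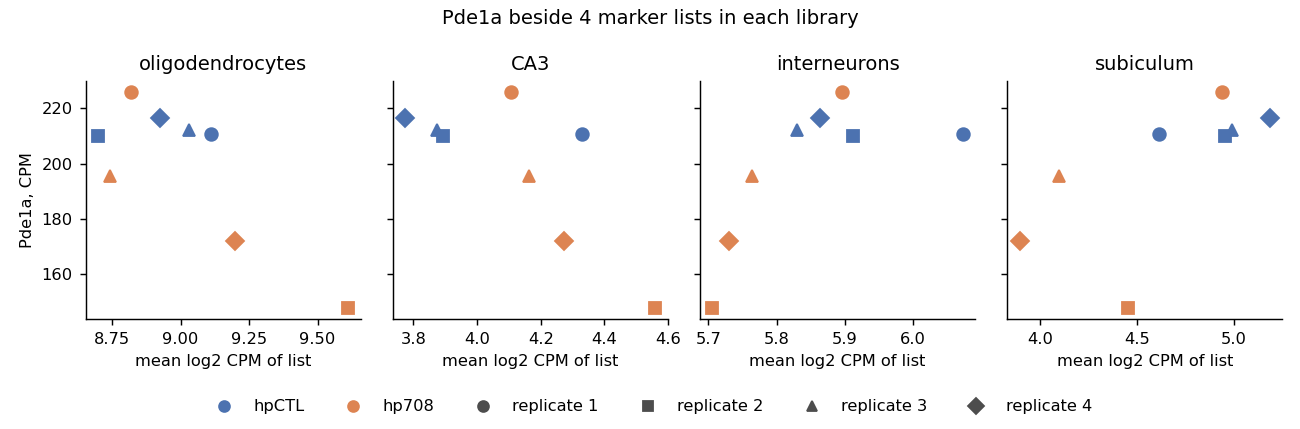
Pde1a (CPM, vertical axis, not from 0) against the mean log2 CPM of 4 marker lists (horizontal axes) in each library; blue symbols are hpCTL, orange symbols hp708, and the shape gives the replicate number. The lowest Pde1a value (148, hp708 replicate 2) falls at the highest oligodendrocyte and CA3 levels, and the 4 controls stay between 209.9 and 217 across their range of all 4 lists.

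The genes whose log2 CPM was most like that of Pde1a over the 8 libraries, by Pearson's r, were Zswim3 (r = 0.977), Vps39 (0.974), Kcnj9 (0.971), D630023F18Rik (0.970) and Chst8 (0.967). Kcnj9, which encodes an inwardly rectifying potassium channel subunit, was at 100.1 to 106 CPM in hpCTL and at 111, 66.3, 87.0 and 71.8 in hp708. Its order of the hp708 libraries was that of Pde1a. Of 17243 other tested genes 74 (0.429%) had r over 0.9. The same 8 libraries and their group difference underlie all these values, which describe likeness only.

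The rest of the pathway was taken from lists of its genes by function. Of the 12 other catalytic phosphodiesterases 9 could be tested and 3, the photoreceptor genes Pde6a, Pde6b and Pde6c, had too few reads. None passed an FDR of 0.05 and 1 had an unadjusted p below 0.05. This was Pde9a, which encodes a cGMP-specific enzyme of high affinity, at 17.3 ± 0.705 CPM in hpCTL and 13.7 ± 3.52 in hp708 (SD, n = 4 each), with a log2 fold change of -0.23 (SE 0.10, FDR = 0.646). For Pde9a the library labelled hp708 replicate 1 lay among the controls, at 17.6 CPM. The hp708 replicates 2 to 4 were at 10.8, 15.7 and 10.6. Pde3a, whose product cleaves cAMP and is inhibited by cGMP, had the highest log2 fold change of this list, at 0.21 (SE 0.14, FDR = 0.771). Pde8b, which encodes a cAMP-specific enzyme, was the most abundant, at 63.5 ± 6.31 CPM in hpCTL and 62.1 ± 6.37 in hp708. The 9 tested genes had a median log2 fold change of 0.04, with 4 lower and 5 higher in hp708.

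**Figure D5:**
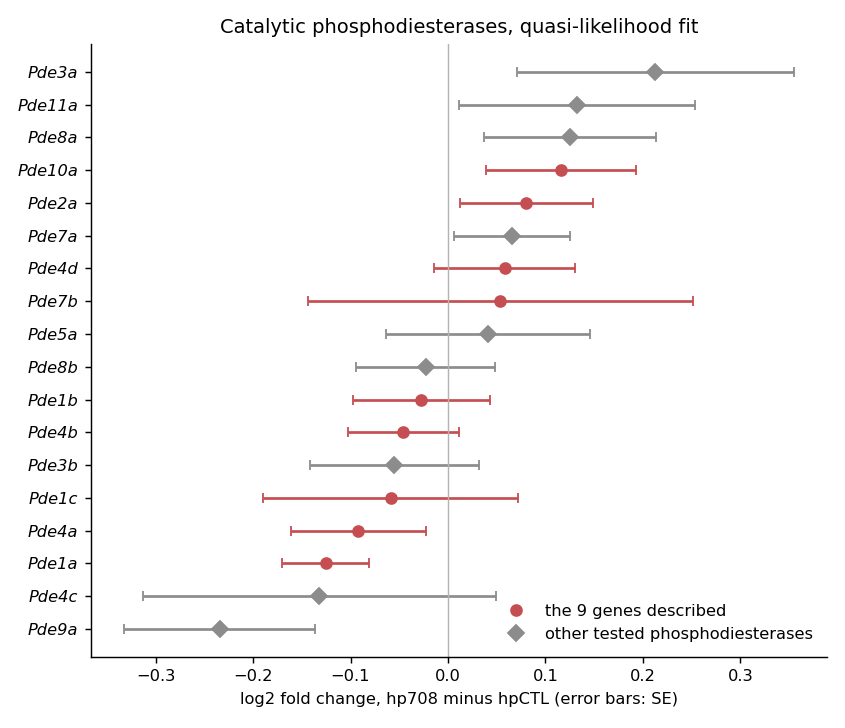
Log2 fold change (hp708 minus hpCTL) with its SE for the 9 genes described (red circles) and the 9 other tested catalytic phosphodiesterases (grey diamonds), in order of size, from the fit on all 8 libraries. They run from -0.23 (Pde9a) to 0.21 (Pde3a) and the 9 described genes lie between -0.13 and 0.12.

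Adenylyl cyclases make cAMP. Of 10 genes 9 were tested (Adcy10 had too few reads) and none passed an FDR of 0.05, with 2 at an unadjusted p below 0.05 in opposite directions. Adcy8, which encodes a cyclase stimulated by calcium and calmodulin, was at 18.8 ± 1.57 CPM in hpCTL and 15.4 ± 2.54 in hp708 (log2 fold change -0.31, SE 0.10, FDR = 0.560). Adcy9 was at 62.5 ± 16.7 CPM in hpCTL and 78.3 ± 21.2 in hp708 (log2 fold change 0.28, SE 0.07, FDR = 0.386). Adcy1, the other calmodulin-stimulated cyclase abundant in forebrain, was the highest of the list at 617 ± 102 CPM in hpCTL and 743 ± 205 in hp708, with an FDR of 0.744. Both group SDs of Adcy9 exceeded the difference between its means.

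Guanylyl cyclases make cGMP, in the cytosol on activation by nitric oxide or at the membrane on binding of peptides. Of 10 genes 9 were tested, Gucy1b2 having too few reads, and none had an unadjusted p below 0.05. Gucy1b1, the common subunit of the nitric oxide receptor, was the most abundant, at 119 ± 3.73 CPM in hpCTL and 119 ± 7.55 in hp708. The lowest and highest log2 fold changes were those of Gucy1a2, an alternative partner subunit, at -0.37 (SE 0.19) and of Gucy2c, a peptide receptor barely detected at 0.428 ± 0.0615 and 0.555 ± 0.218 CPM, at 0.19 (SE 0.39).

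Among 13 genes of kinases and other effectors, which act downstream of the messengers, none had an unadjusted p below 0.05. Prkar1a, a regulatory subunit of the cAMP-dependent kinase, was the most abundant at 653 ± 47.5 CPM in hpCTL and 627 ± 29.4 in hp708. Log2 fold changes ran from -0.10 (SE 0.10) for Prkacb, a catalytic subunit, to 0.17 (SE 0.13) for Prkg1, the cGMP-dependent kinase. In 1 of the 13 the groups did not overlap (1.51% of all tested genes), Prkar2b, named after its values were seen. It was at 30.3 to 33.7 CPM in hpCTL and at 28.8 to 29.5 in hp708, with a log2 fold change of -0.08 (SE 0.06, FDR = 0.775). Calm2, which encodes calmodulin, the activator of the PDE1 enzymes, was at 1435 ± 224 CPM in hpCTL and 1399 ± 61.3 in hp708, with a log2 fold change of 0.00 (SE 0.05, FDR = 0.994).

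The 8 anchoring and partner genes, which hold kinases and phosphodiesterases in place, ran from -0.10 (SE 0.10) for Akap12 to 0.18 (SE 0.27) for Disc1, a partner of PDE4, with Akap11 the most abundant at 258 ± 22.9 and 269.5 ± 28.6 CPM. None had an unadjusted p below 0.05. Of the 9 nuclear and phosphatase targets 1 did, Crtc1, a coactivator of CREB and the most abundant of the list. It was at 276 ± 8.34 CPM in hpCTL and 293 ± 34.0 in hp708 (log2 fold change 0.12, SE 0.05, FDR = 0.613). Arpp21 had the lowest log2 fold change of this list, at -0.13 (SE 0.08), and Ppp1r1b, which encodes the phosphatase inhibitor DARPP-32 of striatal neurons, the highest, at 0.23 (SE 0.12). As with Pde1a, the library labelled hp708 replicate 1 was the highest of all for Arpp21, at 179 CPM. The hp708 replicates 2 to 4 were at 132, 143 and 126, below the controls at 159 to 178.

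Over all 65 other genes of the pathway 60 were tested. None passed an FDR of 0.05 in edgeR's quasi-likelihood test, the likelihood ratio test or DESeq2, each with 3 surrogate variables, beside 0.0058%, 0.736% and 0.556% of all tested genes. At an unadjusted p below 0.05 there were 4, 2 lower and 2 higher in hp708, beside 7.7% of all tested genes. This count depended on the libraries and the fit. Without the library labelled hp708 replicate 1 it was 14 of 60, beside 12.2% of all tested genes. It ranged from 2 to 7 when another library was left out, and the count over all tested genes moved too. Without hpCTL replicate 3 it was 2 of 60, beside 520 of 17452 tested genes. Without hp708 replicate 2 it was 7 of 60, beside 2097 of 17463. Without surrogate variables it was 1 of 60, beside 1.81%. The fitted value was lower in 29 and higher in 31, with a median log2 fold change of 0.00.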

How the data were processed

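Hippocampal polyA-RNA libraries of 8 mice, 4 hpCTL and 4 hp708, were analysed and grouped by their labels. The authors mapped reads to GRCm39 with STAR 2.7.8a and counted them per gene with featureCounts 1.6.4, and deposited raw counts in 1 table (strand and multi-mapping settings not given in the sources used here). Each column was matched to a sample by animal number. Of 40659 identifiers 39641 were named from GENCODE annotation of the same build, in a later release than the authors used.

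From the deposited counts, genes kept by filterByExpr (17252) were tested with edgeR 4.0.16 in R 4.3.3: TMM normalization, quasi-likelihood fitted as in edgeR 3, and group plus 3 surrogate variables (svaseq of sva 3.50.0) as terms, with FDR by Benjamini and Hochberg over all tested genes. The authors' methods name edgeR 3.32.1, its likelihood ratio test and 3 surrogate variables, whereas their figure legend names the quasi-likelihood model. Standard errors came from the fold change and the test statistic. Log2 CPM used a prior count of 2. Levels were divided by the union of annotated exon lengths. Correlations and level differences used exact permutation tests over the 8 libraries, two-sided (Python 3.11.15, scipy 1.17.1), and group means of marker lists an exact permutation of 4 against 4, for which 0.0286 is the smallest p. Replicates within a group differed by a chi-square per degree of freedom of 10.0 to 46.2, so none was a copy of another. The 9 members, the pathway and marker lists and the tests were chosen with earlier results of these data known. Named genes were the members, in each pathway list the most abundant tested gene and those with the highest and the lowest log2 fold change, the 5 genes most like Pde1a, and any list gene with an FDR under 0.05 (none had one). Some genes that this rule names are not reported here. The fit was tested on simulated data. Results were recomputed with 0 to 2 surrogate variables, by DESeq2 1.42.0 or edgeR's likelihood ratio test, and after varying normalization, filter, replicate block, gene length, site definition and the libraries used.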

Additional observations from a re-analysis of the deposited data

Results flagged for a closer look

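Among 50 groups of 4 libraries checked for a single value far from the other 3, 3 were flagged, and about 2.5 (1 in 20) would be by chance. All 3 are hpCTL replicate 1. Pde4d was at 13.2 CPM in this library and at 21.9 to 23.0 in the other hpCTL libraries. Pde10a was at 55.4 CPM, against 74.4 to 77.5. The mean log2 CPM of 6 interferon response genes was 3.45, against 4.57 to 4.78.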

How the results depend on the processing

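Under all settings tried, including DESeq2 and the likelihood ratio test, 0 of the 9 members and 0 of the 60 other pathway genes passed an FDR of 0.05. Of 261 refitted log2 fold changes of the members 234 kept their sign and their side of the threshold and 27 changed sign, none of them of Pde1a, Pde2a or Pde4a. With at least 10 counts required in every library, Pde4d was at -0.11, Pde7b at -0.22 and Pde10a at -0.038. With 1 library left out, log2 fold changes ranged from -0.099 to 0.021 for Pde1b, -0.31 to 0.058 for Pde1c, -0.25 to 0.19 for Pde4d, -0.22 to 0.15 for Pde7b and -0.069 to 0.19 for Pde10a. With 1 library left out and no surrogate variables, Pde1c was at 0.024 when hpCTL replicate 2 was dropped and at 0.014 when hp708 replicate 4 was, and Pde4b at 0.0059 without hp708 replicate 3. Pde4d was at -0.13 without hpCTL replicate 1 and at -0.056, -0.032 and -0.0075 without hp708 replicates 1, 3 and 4. Pde7b was at -0.023 and -0.0096 without hpCTL replicates 1 and 4 and at -0.14 without hp708 replicate 3, and Pde10a at -0.0030 without hpCTL replicate 1. The cause was not tested. The level difference of Pde4a minus Pde1b ranged from -0.037 to 0.039 (log2) with 1 library left out, and Pde4d minus Pde7b was -0.050 with the longest and -0.019 with the mean transcript length. The number of marker lists correlated with Pde1a ranged from 0 to 1 with 1 library left out: without hpCTL replicate 1 interneurons passed (r = 0.89, adjusted p = 0.0298, exact permutation test). Counting 6-base matches, 9 of 9 members had a seed site, by the wider definition itself.

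Same-numbered libraries did not deviate together (r = 0.0088, -0.025, -0.041 and 0.018), so the numbers pair nothing. A replicate block with 3 surrogate variables could not be fitted. A block without them, chosen after seeing the data, gave 0 of 9 members called, Pde1a at -0.21 and Pde7b at -0.00075. Surrogate variables from depth-scaled counts, also added then, gave Pde1a its lowest FDR with all 8 libraries, 0.263. Over the 13 settings with all 8 libraries it ranged from 0.263 to 1.00. Depth was lowest for Pde1c, at 123 to 209 reads per library, and Pde7b, at 231 to 408.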
